A study of Mus musculus with 30 samples.

Results

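The genes described here encode the subunits of the ion channel families whose symbols begin with Scn, Kcn, Cacna, Cacnb or Hcn, measured in mouse primary visual cortex (V1) at postnatal days 14, 28 and 60 (P14, P28 and P60). They were chosen by name: every probe set on the arrays whose annotation lists a single gene symbol that opens with Scn and a digit, Kcn, Cacna, Cacnb, or Hcn and a digit. This gave 99 genes with 164 probe sets, of 15965 genes with 29197 such probe sets in all. The rule takes in channels that voltage does not open, such as the inward rectifiers (Kcnj), the two-pore channels (Kcnk) and the SK and sodium-activated channels (Kcnn, Kcnt), and 3 noncoding transcripts (Kcnmb4os1, Kcnmb4os2 and Kcnq1ot1), so the group is wider than voltage-gated channels. No genotype, strain, sex or drug is given in the labels: all mice had standard rearing, and the labels of the groups differ only in age. The P14 and P28 groups hold 3 litters each and the P60 group holds 4. V1 was dissected from each litter, and its RNA was put on 3 Affymetrix array types: MG-U74Av2 (chip A), MG-U74Bv2 (chip B) and MG-U74Cv2 (chip C). The sources used here do not say how many animals went into a litter's RNA, and the p-values assume that the 10 litters are separate. The values are MAS5 signals, an intensity on a linear scale summarised over the probes of a probe set.

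A voltage-gated channel is built around a large pore-forming alpha subunit and carries smaller auxiliary subunits that set where it sits and how fast it opens and closes. Sodium channels start the action potential, potassium channels end it and set the firing pattern, calcium channels turn depolarisation into calcium entry and transmitter release, and the two-pore and inwardly rectifying potassium channels hold the resting potential. In rodent cortex the weeks after birth are the time in which action potentials become shorter, fast-spiking interneurons acquire their firing pattern, and axons become myelinated with channels sorted to the nodes of Ranvier and the segments beside them.

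A pair of channel genes passed the test between P14 and P60, so the sequence just before their start sites is shown first: Scn4b, the sodium channel beta-4 subunit, which rose, and Kcnk2, the two-pore channel also known as TREK, which fell. Each line gives the 100 bases before an annotated start, 5′ to 3′ on the gene's strand, from RefSeq on GRCm38.p6, and capitals mark an E-box, CANNTG, the letters that many basic helix-loop-helix factors bind.

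Scn4b, chr9:45138524-45138623, plus strand: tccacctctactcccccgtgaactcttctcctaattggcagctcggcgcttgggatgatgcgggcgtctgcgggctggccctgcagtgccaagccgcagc
Kcnk2 start 1, chr1:189402274-189402373, minus strand: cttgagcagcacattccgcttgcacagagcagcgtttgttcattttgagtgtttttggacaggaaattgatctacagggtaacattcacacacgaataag
Kcnk2 start 2, chr1:189344193-189344292, minus strand: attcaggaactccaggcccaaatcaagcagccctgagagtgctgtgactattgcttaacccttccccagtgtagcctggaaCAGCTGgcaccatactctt
Kcnk2 start 3, chr1:189343708-189343807, minus strand: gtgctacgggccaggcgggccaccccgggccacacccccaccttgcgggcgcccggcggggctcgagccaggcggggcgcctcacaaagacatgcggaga
Kcnk2 start 4, chr1:189343354-189343453, minus strand: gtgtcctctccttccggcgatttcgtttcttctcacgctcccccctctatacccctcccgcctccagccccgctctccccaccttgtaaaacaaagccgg

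Scn4b has 1 annotated start and Kcnk2 has 4, and which of them V1 uses was not measured. The bases G and C made up 65% of the Scn4b window and 43%, 52%, 77% and 61% of the Kcnk2 windows, beside a median of 55% over the 32851 windows of the table. The windows were searched on both strands for the GC box GGGCGG, the TATA box TATAAA, the cAMP response element TGACGTCA and the E-box CANNTG, and none of these contains another. The E-box before Kcnk2 start 2 was the only match in these 5 windows. Over the 105 windows of the 75 channel genes with an entry, 31.4% held the GC box, 0.952% the TATA box, 0% the cAMP response element and 24.8% the E-box, and over all windows the shares were 24.7%, 5.56%, 1.15% and 34.4%. A match is a run of letters and not a measured binding site.

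Of the 164 probe sets, 103 from 69 genes were bright enough to be tested, which means above their chip's median signal on at least 3 arrays, and 61 were not, leaving 30 genes with no test. Differences are given on the log2 scale of the signal plus a small constant for each chip, with limma's standard error, and p-values were adjusted with the Benjamini-Hochberg method over all 20724 tested probe sets. Between P14 and P60, limma called 2 of the 103 channel probe sets at an adjusted p under 0.05, 1 of them higher and 1 lower, beside 0.396% of all probe sets tested, and 0 of them without P14 litter 2. Between P14 and P28 limma called 0 of them, beside 0.00483% of all, and between P28 and P60 again 0, beside 0% of all. At an unadjusted p under 0.05 the counts were 14 between P14 and P28 (7.87% of all tested), 4 between P28 and P60 (5.43%) and 24 between P14 and P60 (15.7%), which is 13.6%, 3.88% and 23.3% of the channel probe sets. The moderated F-test over the 3 ages called 1 channel probe set, for Scn4b, beside 0.111% of all. The median channel probe set differed by 0.03 between P14 and P28, by -0.07 between P28 and P60 and by 0.07 between P14 and P60, and the medians of all tested probe sets were 0.03, -0.01 and 0.06.

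The litters can also be read without a model, by whether the signals of one age all lie beyond those of another. Between P14 and P28, 14 channel probe sets were higher in every P28 litter than in any P14 litter and 11 were lower in every one, and among all tested probe sets 9.45% and 8.41% did so. Between P28 and P60 the channel counts were 6 higher and 3 lower, beside 3.9% and 4.46% of all. Between P14 and P60 they were 12 higher and 7 lower, beside 6.61% and 6.42% of all. As shares of the 103, these counts are 13.6% and 10.7%, then 5.83% and 2.91%, then 11.7% and 6.8%, so the channel shares lay within a factor of 2 of the share over all probe sets in each comparison and direction.

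One array set needs to be known before the values. P14 litter 1 had a ratio of 3′ to 5′ signal of 9.57 to 12.2 for Gapdh and 12.2 to 12.8 for Actb over its 3 arrays, where the other 27 arrays lay between 0.741 and 1.32 and between 1.04 and 1.5. This litter was the highest or the lowest of the 10 for 54 of the 103 channel probe sets, 52.4%, and for 44.5% of all tested probe sets. Its part in each difference was measured by leaving it out. Without it limma called 3 channel probe sets between P14 and P60, for Scn4b, Kcnk2 and Kcng1 (the last admitted to the test by its P14 arrays alone), beside 2.4% of all, and 0 between P14 and P28, beside 0.125% of all. With the arrays that an earlier look at the series found to stand apart also left out (P60 litters 1 and 4 on chips A and B, and P60 litter 2 on chip C), called the reduced set below, 8 channel probe sets passed between P14 and P60, beside 2.13% of all, and 4 between P14 and P28, beside 1% of all. These arrays were picked in the same data, and on chips A and B only litters 2 and 3 remain at P14 and at P60. A pass in the reduced set is therefore given as a description. Leaving out P14 litter 1 moved the difference between P14 and P60 by over 1.5 times for 64 of the 103 channel probe sets: 25 became smaller and 27 larger with the same sign, and 12 changed sign. The reduced set moved 82 that far, with 26 changes of sign. A pair of probe sets, Kcng1 105877_at and Kcnmb4os1 169332_at, were above the chip's median signal, the filter for testing, on arrays of 1 age only, the age where they were highest, so this choice favoured a difference between ages.

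**Figure D1:**
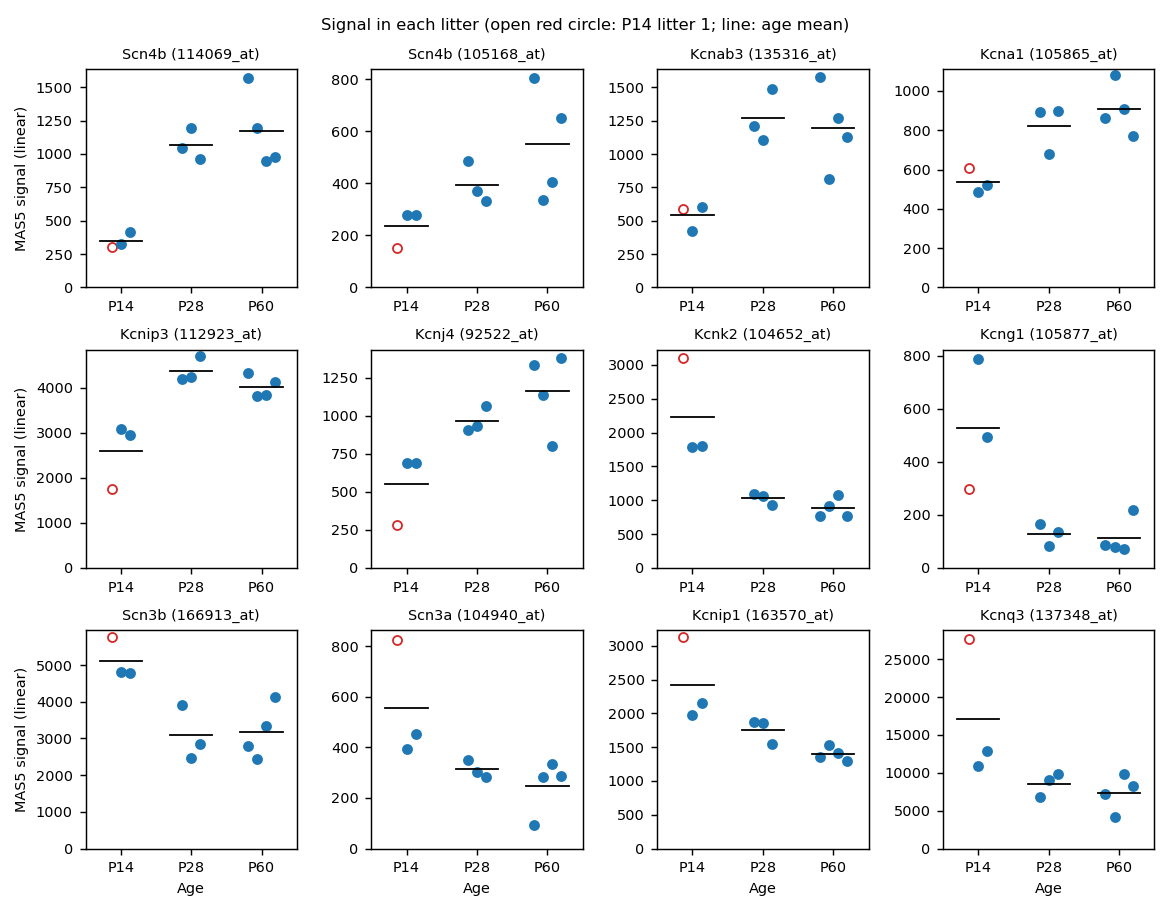
MAS5 signal (linear, from 0) of 12 channel probe sets in each litter at P14, P28 and P60; filled points are litters, the open red circle is P14 litter 1, whose RNA had a high 3′ to 5′ ratio, and the line is the age mean. For Scn4b 114069_at the P14 litters lie between 304 and 413 and every later litter lies above 946, and for Kcnk2 the later litters lie below all 3 P14 litters.

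The sodium channel alpha subunits, which form the pore, were represented by 7 genes, of which Scn1a, Scn2a, Scn3a and Scn8a were bright enough to be tested, with 8 probe sets. Between P14 and P60, 3 of these were higher and 5 lower, with a median of -0.05, and limma called none, with 1 at an unadjusted p under 0.05. Scn3a, the sodium channel best known from the fetal and neonatal brain, had the largest difference of these. Its probe set 104940_at read 826, 393 and 451 at P14, 352, 304 and 282 at P28 and 92.7, 283, 335 and 285 at P60. Every later litter was below every P14 litter, and the difference between P14 and P60 was -1.03 ± 0.35 (adjusted p = 0.192). P14 litter 1 was the highest value and P60 litter 1 the lowest by far, and without P14 litter 1 the difference was -0.73 (adjusted p = 0.296). In the reduced set, which also leaves out P60 litter 1, it was -0.39 (adjusted p = 0.412).

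Scn1a and Scn8a, sodium channels of mature neurons (Scn1a needed for interneuron firing, Scn8a found at nodes and initial segments), showed no common direction over their probe sets. Scn1a 162255_s_at had means of 2469 ± 1782, 2271 ± 201 and 2109 ± 214 (SD) at P14, P28 and P60, and its P14 litters read 4520, 1297 and 1589, so that P14 litter 1 stood above all others. Scn1a differed here by -0.01 between P14 and P60, by 0.54 without P14 litter 1 and by 0.58 in the reduced set. Its other probe set, 94201_at, had means of 918 ± 476, 800.3 ± 124 and 683 ± 248 and a P60 against P14 difference of -0.35 ± 0.33 (adjusted p = 0.618), which was 0.02 without P14 litter 1 and 0.11 in the reduced set. Scn8a had 4 tested probe sets, and their differences between P14 and P60 were 0.63 for 104504_at, 0.19 for 105825_at, 0.24 for 138007_at and -0.44 for 135307_at. The first was 0.08 without P14 litter 1 and -0.12 in the reduced set. The smallest adjusted p among them was 0.342, for 135307_at, whose signals ranged from 5152 to 6806 at P14, 3568 to 4953 at P28 and 3575 to 5667 at P60. Scn2a, the main sodium channel of young excitatory axons, read 827, 1373 and 1212 at P14, 944, 1144 and 962 at P28 and 909, 1118, 1083 and 1050.2 at P60, and its ages overlapped, with a P60 against P14 difference of -0.10 ± 0.22 (adjusted p = 0.853).

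The sodium channel beta subunits are small membrane proteins with an immunoglobulin domain that sit beside the pore. All 5 of their probe sets were tested, and between P14 and P60, 3 were higher and 2 lower, with differences from -0.73 to 1.58. Scn4b, whose protein supplies the tail that blocks the open channel and allows resurgent current in fast-firing neurons, had the clearest change of all channel genes. Its probe set 114069_at read 304, 324 and 413 at P14, 1046, 1192 and 964 at P28 and 1571, 1196, 947 and 974 at P60. The mean was 3.38 times as high at P60 as at P14, no later litter reached down to any P14 litter, and the difference of 1.58 ± 0.21 (adjusted p = 0.011) passed in limma. Between P14 and P28 the difference was 1.48 ± 0.22 (adjusted p = 0.0836) and between P28 and P60 it was 0.11 ± 0.21 (adjusted p = 0.965). The F-test over the 3 ages gave an adjusted p of 0.0279. With each litter left out in turn the difference between P14 and P60 ran from 1.44 to 1.70, and its adjusted p was 0.0556 without P14 litter 2 and at most 0.0401 without any other litter.

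The second Scn4b probe set, 105168_at, read 153, 277 and 279 at P14, 484, 369 and 334 at P28 and 806, 335, 406 and 651 at P60. Every later litter was again above every P14 litter, while the difference between P14 and P60, 1.01 ± 0.30 (adjusted p = 0.149), did not pass. P14 litter 1 was the lowest of the 10 here, and without it the difference was 0.78 (adjusted p = 0.2), and in the reduced set 0.35 (adjusted p = 0.495). Both probe sets lie on chip B. The striatum is rich in Scn4b, and the summed signal of the 3 of 6 listed striatal markers with a probe set (Ppp1r1b, Rgs9 and Drd2) was 1276 to 1886 at P14, 2411 to 2872 at P28 and 2006 to 3132 at P60. Ppp1r1b, a dopamine signalling gene that is also present in cortex, read 946, 724 and 1039 at P14, 1883, 1514 and 1890.3 at P28 and 1654, 1795, 1314 and 1717 at P60, a difference of 0.81 ± 0.19 (adjusted p = 0.092) between P14 and P60, and Drd2 was not bright enough to be tested. The summed signal of 5 interneuron markers (Pvalb, Gad1, Gad2, Sst and Slc32a1) was 13735 to 18612 at P14, 17322 to 20569 at P28 and 16223 to 19132 at P60. P14 litter 1 gave the highest P14 sum, with Gad1 at 9459, beside 2167 and 2939 in the other P14 litters. The part of striatal and interneuron cells in the Scn4b result was not tested. In whole tissue more cells of a type and more RNA per cell cannot be told apart.

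Scn3b, a beta subunit of the developing and adult forebrain, went the other way without passing. Its probe set 166913_at read 5774, 4805 and 4782 at P14, 3916, 2478 and 2854 at P28 and 2801, 2433, 3342 and 4132 at P60. All P28 and P60 litters were below all P14 litters, with differences of -0.74 ± 0.25 (adjusted p = 0.475) between P14 and P28 and -0.70 ± 0.23 (adjusted p = 0.177) between P14 and P60. The other probe set, 133130_at, had means of 668 ± 315, 302 ± 118 and 375 ± 160.5 and a difference of -0.73 ± 0.44 (adjusted p = 0.426), with overlapping litters, and it was -1.19 without P14 litter 1 and -1.14 in the reduced set. The summed signal of 7 neuronal markers (Snap25, Syt1, Thy1, Rbfox3, Nefl, Nefm and Slc17a7) was 40792 to 49178 at P14, 34925 to 41436 at P28 and 31258 to 41961 at P60, and its part in the lower signals was not tested. P14 litter 1 gave the highest sum, with Snap25 at 25059, beside 9055 and 11254 in the other P14 litters. Scn2b, a beta subunit tied by a disulfide bond to the pore, read 12287, 10907 and 11109.7 at P14, 13871, 11418 and 14028 at P28 and 11886, 7949, 20072 and 10844 at P60, and its ages overlapped throughout, with a difference of 0.07 ± 0.27 (adjusted p = 0.92).

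The Kv alpha subunits form the voltage-gated potassium pores and were the largest family, with 25 genes and 44 probe sets, 29 of them tested. Between P14 and P60, 16 were higher and 13 lower, with a median of 0.12, and limma called none, with 8 at an unadjusted p under 0.05. Kcna1, a low-threshold channel placed beside the nodes of myelinated axons, had 3 tested probe sets. Probe set 105865_at read 606, 487 and 519 at P14, 892, 678 and 897 at P28 and 862, 1080.3, 910.4 and 771 at P60. All later litters were above all P14 litters, and the differences were 0.56 ± 0.20 (adjusted p = 0.487) between P14 and P28 and 0.69 ± 0.19 (adjusted p = 0.124) between P14 and P60. Probe set 103787_at read 998, 531 and 688 at P14, 955, 1279 and 990.5 at P28 and 903, 1417, 1329 and 989 at P60, and here P14 litter 1 lay inside the later range, so that the ages overlapped and the difference was 0.64 ± 0.25 (adjusted p = 0.244). Without P14 litter 1 the differences were 0.77 (adjusted p = 0.0604) for 105865_at and 0.87 (adjusted p = 0.0592) for 103787_at, and in the reduced set both passed, at 0.91 (adjusted p = 0.044) and 1.13 (adjusted p = 0.024). The P60 litters that the reduced set leaves out here, litters 1 and 4, had the lowest P60 values on both probe sets.

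The third Kcna1 probe set, 138458_at, read 10100.0, 3201 and 4676 at P14, 6080.2, 5757 and 6579 at P28 and 6784, 3986, 7769 and 6087 at P60. Here P14 litter 1 was far above the other P14 litters, and the difference of 0.16 ± 0.34 (adjusted p = 0.836) changed sign between settings, from -0.20 to 0.82. Kcna2, which joins Kcna1 in the same tetramers, read 972, 599 and 775 at P14, 818, 901 and 854 at P28 and 967, 809, 913 and 825 at P60 on 116869_at, and its difference was 0.18 ± 0.19 (adjusted p = 0.667). The summed signal of 6 myelin markers was 3926 to 7366 at P14, 8736 to 14374 at P28 and 9878 to 13957 at P60. P14 litter 1 gave the 7366, with Mobp at 3376, beside 441 and 717 in the other P14 litters. Of the 5 that could be tested all 5 were higher at P60 than at P14 and 1 passed, Mag, at 1.51 ± 0.28 (adjusted p = 0.0461). That call held without P14 litter 1 (adjusted p = 0.0235) or P60 litter 3 (adjusted p = 0.0473) and was lost when any one of the other 8 litters was left out (adjusted p from 0.0549 to 0.143) and under quantile normalization (adjusted p = 0.0534). Whether more myelinated axon took part in the Kcna1 values was not tested.

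Kcnc1, the fast potassium channel that lets interneurons fire at high rates, had 3 tested probe sets that went different ways. Probe set 105733_at read 803, 580.4 and 912 at P14, 1023, 1404 and 1757 at P28 and 937, 1395, 1779 and 939.6 at P60, all later litters above all P14 litters, with differences of 0.81 ± 0.29 (adjusted p = 0.486) between P14 and P28 and 0.65 ± 0.27 (adjusted p = 0.272) between P14 and P60. Probe sets 137979_at and 138056_r_at gave -0.22 ± 0.20 and 0.31 ± 0.30 between P14 and P60, both with overlapping litters, and the latter was -0.14 without P14 litter 1 and -0.17 in the reduced set. Pvalb, the calcium-binding protein of fast-spiking interneurons, had mean signals of 3498, 5089.5 and 4262 at P14, P28 and P60, and its difference between P14 and P60 was 0.27 ± 0.24 (adjusted p = 0.608).

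The ether-a-go-go channels of the Kcnh family also split. Kcnh2, the ERG channel, read 409, 591 and 752 at P14, 787, 903 and 1057 at P28 and 1069.8, 835, 1039.6 and 942 at P60, all later litters above all P14 litters, with a difference of 0.73 ± 0.22 (adjusted p = 0.155) between P14 and P60. Kcnh1 98380_at had means of 183 ± 73.5, 269.8 ± 33.4 and 373 ± 127 (SD) and a difference of 0.89 ± 0.30 (adjusted p = 0.192), with 1 P60 litter inside the P14 range. The second Kcnh1 probe set, 138138_at, had a difference of -0.10 ± 0.21. Kcnh2 was at 0.51 without P14 litter 1 and 0.46 in the reduced set. Kcnh5 read 429.6, 341 and 349.5 at P14, 235, 298 and 346 at P28 and 115, 208, 226 and 158 at P60. All P60 litters were below all P28 and all P14 litters, and the difference between P14 and P60 was -0.90 ± 0.26 (adjusted p = 0.139), and -0.55 in the reduced set.

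Kcnq3, which makes the slow M-current that limits repetitive firing, read 27625, 10911 and 12914 at P14, 6764, 9013 and 9806 at P28 and 7204, 4117, 9883 and 8249 at P60 on 137348_at. P14 litter 1 stood far above every other litter, and the difference of -1.16 ± 0.35 (adjusted p = 0.147) between P14 and P60 was -0.76 (adjusted p = 0.21) without it and -0.50 in the reduced set. The second Kcnq3 probe set, 138513_at, had means of 656, 612 and 637 and a difference of -0.07 ± 0.34 (adjusted p = 0.931). It was at 0.17 without P14 litter 1 and 0.33 in the reduced set. Kcnq5 gave 0.32 ± 0.29 on 140487_r_at and -0.40 ± 0.29 on 166812_at, so its probe sets differed in sign too, and these were 0.15 and -0.22 without P14 litter 1.

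Kcng1, an alpha subunit that is silent alone and changes other Kv channels when it joins them, had the largest difference of all the tested channel probe sets. Its probe set 105877_at read 298, 787 and 496 at P14, 165, 83.0 and 136 at P28 and 85.7, 77.3, 70.8 and 218 at P60. Every later litter was below every P14 litter, and the difference between P14 and P60 was -1.76 ± 0.39 (adjusted p = 0.0808). This probe set was above the filter signal of 252 on its 3 P14 arrays only and would not have been tested without them, so its difference is given as a description. The adjusted p was under 0.05 without P14 litter 1, at -2.08 (adjusted p = 0.0316), and in the reduced set, at -2.37 (adjusted p = 0.0134). The means at P28 and P60, 128 ± 41.4 and 113 ± 70.2 (SD), lie below the 95th percentile of the Bacillus control probe sets of this chip, 153, which read bacterial transcripts and serve as a background level, so the size of the difference rests on the added constant. The second probe set, 108926_at, had means of 215, 297 and 318 and a difference of 0.36 ± 0.41 (adjusted p = 0.687) in the other direction.

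Among the other Kv alpha subunits the A-type channels showed no common direction: Kcnd1 differed by -0.01 between P14 and P60, Kcnd2 by -0.19 and 0.42 on its probe sets, and Kcnd3 by 0.28 and -0.08. Kcnd2 99339_r_at read 1899 in P14 litter 1 and 427 and 457 in the other P14 litters, and its difference was 1.09 without P14 litter 1 and 0.78 in the reduced set. The silent subunits Kcnf1 and Kcnv1 gave 0.77 ± 0.36 (adjusted p = 0.326) and -0.53 ± 0.24 (adjusted p = 0.32), and Kcns2 gave 0.12 ± 0.21. Kcnf1 was at 0.31 without P14 litter 1 and -0.16 in the reduced set, and Kcnv1 at -0.30 without P14 litter 1 and -0.19 in the reduced set. Kcnf1 was higher in every P60 litter, 686 to 1432, than in any P28 litter, 519 to 629, at 0.74 ± 0.36 (adjusted p = 0.894). In Kcns2 the P28 litters, 300.2 to 338, lay above all P14 litters, 192 to 296, and above all P60 litters, 274 to 291. Kcna5, Kcna6, Kcnc4 and Kcnq1 had differences of -0.35, 0.55, -0.06 and 0.12 with overlapping litters. All age means of Kcna5 and of Kcnd3 135927_at lay below the Bacillus level of their chip, 252, as did the P14 and P28 means of Kcna6.

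The auxiliary subunits of the Kv channels had the highest family median between P14 and P60, 0.66 over 9 tested probe sets of 7 genes, beside 0.06 over all tested probe sets. Of the 9, 6 were higher and 3 lower, and 5 of the higher and 1 of the lower had an unadjusted p under 0.05, while limma called none after adjustment. The family median was 0.68 after quantile normalization, 0.40 without P14 litter 1 (0.02 over all tested probe sets) and 0.27 in the reduced set (0.01 over all), where the sodium channel beta subunits, at 0.32, and the HCN channels, at 0.30, had higher medians. The Kcnab genes encode the cytoplasmic beta subunits that dock under Kcna channels, and all 5 of their tested probe sets were higher at P60 than at P14. Kcnab3 135316_at read 589.9, 426 and 606 at P14, 1208, 1106 and 1487 at P28 and 1578, 814, 1270.3 and 1129.8 at P60. All later litters were above all P14 litters, with differences of 1.17 ± 0.27 (adjusted p = 0.264) between P14 and P28 and 1.07 ± 0.26 (adjusted p = 0.0917) between P14 and P60. The mean was 2.22 times as high at P60 as at P14. It did not pass without P14 litter 1 (1.13, adjusted p = 0.0577) and passed in the reduced set (1.30, adjusted p = 0.028). The P60 litter that the reduced set leaves out here had the lowest P60 value, 814.

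Kcnab3 102577_at had means of 188, 315 and 305 and a difference of 0.86 ± 0.48, with P14 litter 1 at 29.4, the lowest of the 10, and the difference was 0.14 without P14 litter 1 and 0.09 in the reduced set. Kcnab2 102892_at read 299.9, 775 and 470.4 at P14, 974, 851 and 542 at P28 and 936, 746, 726 and 1206 at P60, a difference of 0.83 ± 0.31 (adjusted p = 0.235). P14 litter 1 was again the lowest, and the difference was 0.52 without P14 litter 1 and 0.27 in the reduced set. On Kcnab2 162182_f_at the P60 litters, 779 to 986, lay above all P14 and P28 litters, 476 to 766 and 613 to 715, and the difference from P14 was 0.52 ± 0.20 (adjusted p = 0.238). Kcnab1 102725_at had means of 261 ± 146, 483 ± 221 and 481 ± 184 (SD) and a difference of 0.84 ± 0.37 (adjusted p = 0.302). Without P14 litter 1, which was the highest P14 value, the Kcnab1 difference was 1.21 (adjusted p = 0.0894).

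The Kcnip genes encode the calcium-binding KChIP proteins that bring Kcnd channels to the surface, and 4 of them were tested. Kcnip3, which is also known as the transcriptional repressor DREAM, read 1764, 3089 and 2964 at P14, 4187, 4243 and 4697 at P28 and 4327, 3810.2, 3839.7 and 4124 at P60. All later litters were above all P14 litters, with differences of 0.78 ± 0.22 (adjusted p = 0.397) between P14 and P28 and 0.66 ± 0.21 (adjusted p = 0.17) between P14 and P60. P14 litter 1 was the lowest value, and without it the difference between P14 and P60 was 0.40 (adjusted p = 0.159), and in the reduced set 0.33. Kcnip1, a KChIP found mainly in interneurons, read 3134, 1973 and 2147 at P14, 1869, 1850.0 and 1542 at P28 and 1350.1, 1537, 1407 and 1288 at P60. The P28 litters were all below the P14 litters and the P60 litters all below the P28 litters, and the difference between P14 and P60 was -0.74 ± 0.19 (adjusted p = 0.117). P14 litter 1 was the highest value, and the difference was -0.54 (adjusted p = 0.0959) without it and -0.47 in the reduced set. Kcnip2 and Kcnip4 had differences of -0.12 ± 0.30 and -0.32 ± 0.21, with overlapping litters.

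**Figure D2:**
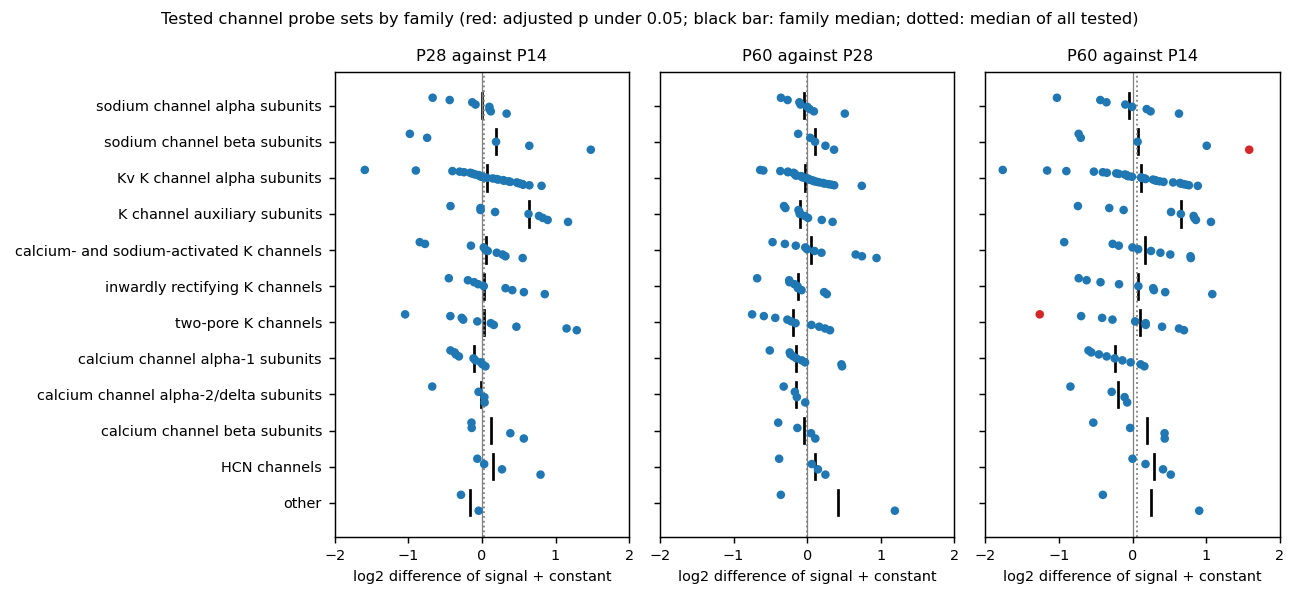
Differences in log2 of signal plus constant for the 103 tested channel probe sets, by family, for P28 against P14, P60 against P28 and P60 against P14; each point is a probe set, red marks an adjusted p under 0.05, the black bar is the family median and the dotted line the median of all tested probe sets. The auxiliary potassium channel subunits have the highest median between P14 and P60 with all litters, 0.66, and the red points are Scn4b and Kcnk2.

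The calcium- and sodium-activated potassium channels shape the pause after a spike. Of their 10 tested probe sets, 6 were higher and 4 lower at P60 than at P14, with a median of 0.16, limma called none, and 2 had an unadjusted p under 0.05. Kcnma1, the BK channel, had means of 3160.4 ± 1675, 2975 ± 433 and 2923 ± 424 (SD) on 97759_at. There Kcnma1 differed by -0.0014 between P14 and P60, by 0.40 without P14 litter 1 and by 0.57 in the reduced set. On 168117_i_at its signals were 5018, 1520.2 and 2259 at P14, 1498, 1681 and 1330.3 at P28 and 1367, 986, 1803 and 1319 at P60, and P14 litter 1 alone was far above the rest, with a difference of -0.93 ± 0.34 (adjusted p = 0.223) that was -0.46 without P14 litter 1 and -0.32 in the reduced set. Kcnmb4, the neuronal BK beta subunit, read 3399, 8037 and 8019.8 at P14, 8324, 6305 and 6371 at P28 and 5217, 3909, 6895 and 4426 at P60, a difference of -0.27 ± 0.31 (adjusted p = 0.691) that was -0.68 without P14 litter 1 and -0.56 in the reduced set. Kcnt1, the sodium-activated channel also called Slack, read 141, 465 and 391 at P14, 317, 232 and 414 at P28 and 853, 422, 509 and 543 at P60 on 107325_at. Its P60 litters were all above the P28 litters, with 0.74 ± 0.34 (adjusted p = 0.894) between P28 and P60 and 0.79 ± 0.34 (adjusted p = 0.296) between P14 and P60, and its other probe set, 137351_at, gave 0.25 ± 0.30 between P14 and P60. P14 litter 1 was the lowest value on 107325_at, and the difference between P14 and P60 was 0.36 without P14 litter 1 and 0.11 in the reduced set. On 137351_at the difference was -0.07 without P14 litter 1 and 0.05 in the reduced set.

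The SK channel genes Kcnn1 and Kcnn2 gave 0.51 ± 0.32 on 97100_at and 0.08 ± 0.21, -0.19 ± 0.51 and 0.38 ± 0.28 on 105539_at, 140647_at and 170806_i_at. The Kcnn1 difference was 0.14 without P14 litter 1 and -0.24 in the reduced set, and all age means of Kcnn2 140647_at lay below the Bacillus level. On 170806_i_at every P60 litter was above every P14 litter, 336 to 491 against 248 to 303. Kcnn4, the intermediate-conductance channel of blood cells and microglia, read 293, 92.0 and 106 at P14, 144, 104 and 138 at P28 and 532, 178, 168 and 367 at P60, with all P60 litters above all P28 litters and P60 litters 1 and 4 the highest, at 0.94 ± 0.43 (adjusted p = 0.894).

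The inward rectifiers had 14 genes but only 5 that could be tested, with 9 probe sets, of which 5 were higher and 4 lower between P14 and P60, with a median of 0.08, limma calling none and 1 having an unadjusted p under 0.05. Kcnj4, a strong inward rectifier of forebrain neurons, read 284, 690.1 and 689 at P14, 908, 930.0 and 1062 at P28 and 1333, 1133, 802 and 1378 at P60. All later litters were above all P14 litters, with 0.85 ± 0.32 (adjusted p = 0.512) between P14 and P28 and 1.08 ± 0.30 (adjusted p = 0.128) between P14 and P60. The lowest value came from P14 litter 1, and without it the difference was 0.69 (adjusted p = 0.104), and in the reduced set 0.45. Kcnj10, the glial channel that clears potassium, read 1729.8, 1797 and 1899 at P14, 1729, 1239.5 and 1826 at P28 and 1048, 1508, 1736 and 1108 at P60, a difference of -0.44 ± 0.22 (adjusted p = 0.346). The summed signal of 6 astrocyte markers was 11455 to 21703 at P14, 10572 to 11870 at P28 and 8811 to 11504 at P60. Its highest value came from P14 litter 1, where Gja1 alone read 15105, beside 4541 and 4405 in the other P14 litters. The other P14 sums were 11455 and 11832.

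Kcnj11, the pore of the ATP-sensitive channel, went different ways on its probe sets: 98787_at gave -0.62 ± 0.41 and 166807_at gave 0.28 ± 0.22 between P14 and P60. On 98787_at the P60 litters ranged from 96.3 to 531. Without P14 litter 1 alone the difference was -0.76 (adjusted p = 0.381). With P60 litters 1 and 4 also left out it was -1.52 (adjusted p = 0.026), so that pass rests on which P60 arrays were left out. Kcnj9, a subunit of the G protein-gated channels, had 4 tested probe sets, at 0.29, 0.44, -0.73 and -0.18, and Kcnj2 gave 0.08 ± 0.27. The signals of all of these overlapped between P14 and P60. Kcnj9 98332_at, at 0.44 with all litters, was at -0.18 without P14 litter 1 and -0.24 in the reduced set.

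The two-pore channels carry the background potassium current. Of 10 tested probe sets from 9 genes, 6 were higher and 4 lower at P60 than at P14, with a median of 0.11. Kcnk2, a channel opened by membrane stretch and lipids, fell. It read 3105, 1790.4 and 1796 at P14, 1086, 1063 and 933 at P28 and 775, 915, 1073 and 775 at P60. All 7 later litters were below all 3 P14 litters, the P14 mean was 2.52 times the P60 mean, and the difference of -1.26 ± 0.23 (adjusted p = 0.0384) passed in limma. Between P14 and P28 it was -1.04 ± 0.24 (adjusted p = 0.278) and between P28 and P60 -0.22 ± 0.23 (adjusted p = 0.931). P14 litter 1 was the highest value, and without it the difference was smaller and still passed (adjusted p = 0.0187). Without P60 litter 3 it passed too (adjusted p = 0.0362), while leaving out any one of the other 8 litters ended the call, with adjusted p from 0.0768 to 0.143 and differences from -1.39 to -1.20.

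Kcnk10, a close relative of Kcnk2, was high at P28: it read 249.7, 261 and 486 at P14, 806, 753 and 979 at P28 and 315, 337, 618 and 1277 at P60. All P28 litters were above all P14 litters, at 1.29 ± 0.45 (adjusted p = 0.475), and the P60 litters spread over both ranges. Kcnk3, an acid-sensitive channel, read 442, 672 and 739 at P14, 882, 925 and 774 at P28 and 1260.4, 927, 579 and 1279 at P60, and its difference between P14 and P60 was 0.63 ± 0.27 (adjusted p = 0.287), which was 0.43 without P14 litter 1 and 0.05 in the reduced set. Kcnk1 gave -0.27 ± 0.26, Kcnk4 0.18 ± 0.27, Kcnk6 -0.41 ± 0.41, Kcnk7 0.04 ± 0.29 and Kcnk15 0.18 ± 0.28 between P14 and P60. Kcnk4 was at -0.17 without P14 litter 1 and -0.19 in the reduced set. The probe sets of Kcnk12 gave -0.70 ± 0.50 on 134817_at and 0.40 ± 0.70 on 166483_at, and on the latter P14 litter 1 read 39.8 where the other P14 litters read 947 and 975, and the difference was -0.79 without P14 litter 1 and -0.54 in the reduced set.

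The calcium channel alpha-1 subunits form the calcium pores. Of 9 tested probe sets from 6 genes, 2 were higher and 7 lower at P60 than at P14, with a median of -0.24, and limma called none, with 0 at an unadjusted p under 0.05. Cacna1c, an L-type channel that couples depolarisation to gene expression, was lowest at P28 on 98386_s_at, which read 689, 639 and 607 at P14, 483, 452 and 556 at P28 and 872, 638, 563 and 756 at P60. Its P28 litters were below all P14 litters, with a difference of -0.35 ± 0.21 (adjusted p = 0.731). All P60 litters were above all P28 litters, with 0.46 ± 0.19 (adjusted p = 0.894). Its other probe set, 137133_s_at, had means of 2543, 1871 and 1904 and overlapped between P28 and P60. Cacna1a and Cacna1b, the presynaptic P/Q-type and N-type channels, gave 0.16 ± 0.38 on 92445_at and -0.60 ± 0.40 on 115213_at, and -0.35 ± 0.29 on 98360_at and -0.14 ± 0.26 on 107388_at. Without P14 litter 1 these were -0.33, -0.43, -0.65 and -0.22, and in the reduced set -0.48, -0.48, -0.33 and 0.22. Cacna1e, an R-type channel, gave -0.03 ± 0.24. The T-type channels Cacna1g and Cacna1i, which open near rest, gave -0.56 ± 0.38 and -0.24 ± 0.32, and Cacna1i read 2697, 6145 and 7581 at P14, 4979, 5042 and 4865 at P28 and 4639, 2957, 5643 and 4132 at P60. Without P14 litter 1 they were at -0.73 and -0.68, and in the reduced set at -0.19 and -0.51.

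The alpha-2/delta subunits bring calcium channels to the surface, and all 4 of their tested probe sets had a lower fitted value at P60 than at P14, with a median of -0.20, which was -0.10 without P14 litter 1 and 0.14 in the reduced set. Cacna2d1, the binding site of gabapentin, read 7456, 3278 and 3743 at P14, 2631, 3054 and 2738 at P28 and 2118, 2906, 3332 and 1861 at P60 on 163248_at. The highest value came from P14 litter 1, and the difference was -0.84 ± 0.29 (adjusted p = 0.196), which was -0.48 without P14 litter 1 and -0.17 in the reduced set. Its second probe set, 104510_at, had means of 548 ± 35.1, 533 ± 86.8 and 550.1 ± 214 (SD), and Cacna2d2 and Cacna2d3 gave -0.28 ± 0.24 and -0.11 ± 0.23. Cacna2d2 was at 0.01 without P14 litter 1 and 0.22 in the reduced set. The cytoplasmic beta subunits had 4 tested probe sets, 2 higher and 2 lower: Cacnb1 gave 0.43 ± 0.26, Cacnb2 0.44 ± 0.32, and Cacnb4 -0.03 ± 0.22 on 162723_at and -0.53 ± 0.26 on 138381_at. Cacnb1 and Cacnb2 were at 0.19 and 0.20 without P14 litter 1 and at 0.27 and 0.08 in the reduced set. For Cacnb4 138381_at the signals ranged from 871 to 1195 at P14, 757 to 1011 at P28 and 502 to 945 at P60.

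The HCN channels carry the inward current that hyperpolarisation opens, and 4 probe sets of Hcn2 and Hcn3 were tested. Hcn2 94194_s_at read 570.0, 613 and 829 at P14, 1134, 1226 and 1176 at P28 and 476, 1305, 996 and 1024 at P60. The P28 litters were above all P14 litters and close together, with 0.80 ± 0.31 (adjusted p = 0.557), and P60 litter 1, at 476, was below all P14 litters. The other Hcn2 probe sets had means of 2566, 2540.5 and 2782 on 94195_r_at and of 171, 225 and 268 on 140639_at, where the P60 litters were above all P14 litters, with 0.52 ± 0.34 (adjusted p = 0.471). The P14 and P28 means of 140639_at were below the Bacillus level. Hcn3 had means of 976 ± 246, 915 ± 94.3 and 961 ± 138 (SD), with overlapping litters and an adjusted p of 0.999 between P14 and P60. Of the noncoding transcripts beside Kcnmb4, Kcnmb4os1 read 96.9, 110.1 and 39.4 at P14, 52.0, 128 and 16.8 at P28 and 144, 206, 185 and 209 at P60, a probe set admitted to the test by 3 P60 arrays alone. All its means were below the Bacillus level. Kcnmb4os2 gave -0.40 ± 0.23 (adjusted p = 0.407) between P14 and P60. The strand that an antisense probe set reads was not checked.

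The step from P14 to P28 and the step from P28 to P60 can be set side by side for the 24 channel probe sets with an unadjusted p under 0.05 between P14 and P60, remembering that both steps use the same P28 litters. For Scn4b 114069_at the first step was 1.48 ± 0.22 and the second 0.11 ± 0.21. For Kcnk2 they were -1.04 ± 0.24 and -0.22 ± 0.23, and for Kcng1 -1.59 ± 0.42 and -0.17 ± 0.39. Kcnt1 107325_at and Kcnh5 had a larger second step, 0.04 ± 0.37 and then 0.74 ± 0.34 for Kcnt1 (the first step was -0.39 without P14 litter 1), and -0.30 ± 0.28 and then -0.60 ± 0.26 for Kcnh5. Kcnip1 had steps of -0.43 ± 0.21 and -0.32 ± 0.19, and of -0.23 and -0.32 without P14 litter 1. Since P28 to P60 gave no call among any of the 20724 probe sets, no second step passed the test.

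**Figure D3:**
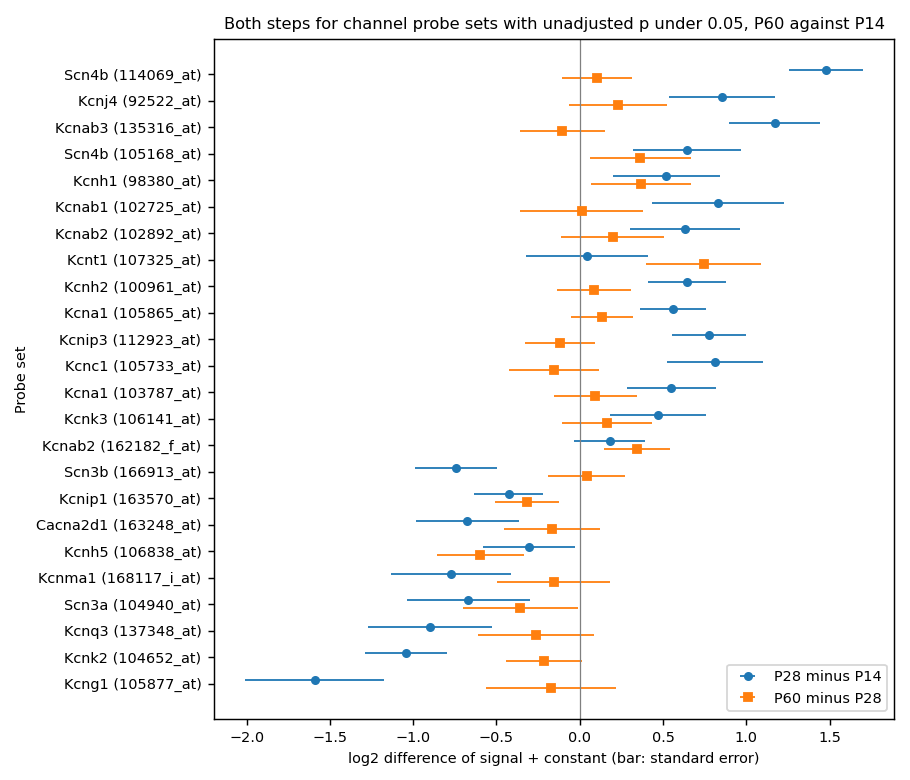
First step (P28 minus P14, blue circles) and second step (P60 minus P28, orange squares) of the 24 channel probe sets with an unadjusted p under 0.05 between P14 and P60, in log2 of signal plus constant with limma's standard error as bars. Scn4b 114069_at moves by 1.48 and then 0.11, Kcnk2 by -1.04 and then -0.22, and Kcnt1 by 0.04 (-0.39 without P14 litter 1) and then 0.74.

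Where a gene had several tested probe sets they often did not point the same way. Of 26 channel genes with 2 or more tested probe sets, 13 had the same sign on all of them between P14 and P60, 50%, beside 49.2% of the 4008 genes of that kind on the arrays, and 12 had the same sign in each of the other comparisons. For this reason each channel value above is given for a probe set and not for a gene. Small differences also changed sign with the processing: 57 of the 103 tested channel probe sets kept the sign of their P60 against P14 difference in all settings and 46 did not, and quantile normalization alone turned 6. Family medians near 0 turned as well, from 0.11 to -0.12 for the two-pore channels, from 0.08 to -0.06 for the inward rectifiers and from -0.05 to 0.05 for the sodium channel alpha subunits without P14 litter 1, and from 0.12 to -0.05 for the Kv alpha subunits in the reduced set. Names ending in f, i, r or s mark probe sets for which the design rules were loosened or that may read more than 1 transcript.

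The calls depended on which arrays entered. Scn4b 114069_at kept an adjusted p under 0.05 between P14 and P60 in 18 of 20 other settings, with differences from 1.40 to 1.70, and lost it without P14 litter 2 and with litter number as a block. Kcnk2 kept it in 9 of 20, with differences from -1.39 to -0.83. The settings with a call for both included those without P14 litter 1 and the reduced set. When limma's array weights were used, which gave the arrays of P14 litter 1 weights of 0.105, 0.164 and 0.354 on chips A, B and C, 24 channel probe sets passed between P14 and P60, 12 higher and 12 lower, which is 23.3% of the channel probe sets beside 17.5% of all tested.

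**Figure D4:**
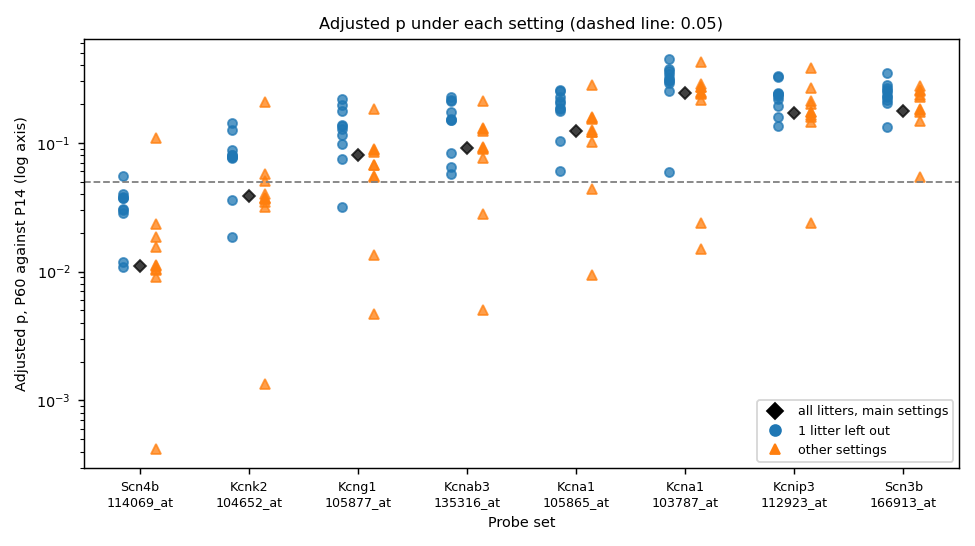
Adjusted p between P14 and P60 (log axis) for 8 channel probe sets under the main settings (black diamond), with each litter left out in turn (blue circles) and under the other settings (orange triangles); the dashed line is 0.05. Scn4b lies under the line in 18 of 20 other settings and Kcnk2 in 9, and Kcng1, admitted to the test by its P14 arrays alone, in 3.

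Partner genes that anchor channels or assemble with them were described from a fixed list of ankyrins, contactins, spectrin, Dlg scaffolds, DPP-like proteins, intracellular fibroblast growth factors, Cacng proteins, chloride channels and transporters. Each gene here and in the marker lists was read on 1 probe set. A tested one was taken where there was any, from chip A before B before C and then the brightest. Other probe sets of these genes were not compared. Of 41 listed partner genes, 35 had a tested probe set: 13 were higher and 22 lower at P60 than at P14, with a median of -0.15, and 1 passed. That was Cacng4, a relative of the calcium channel gamma subunit known as an auxiliary subunit of AMPA receptors, which read 1603, 1861 and 2046 at P14, 1335, 1492 and 895 at P28 and 448, 753, 325 and 444 at P60 and fell by 1.83 on the log2 scale (adjusted p = 0.0143). The P60 litters all lay below the P14 litters. The call was lost without P14 litter 2 (adjusted p = 0.0649), P14 litter 3 (adjusted p = 0.0596), P60 litter 1 (adjusted p = 0.0561) or P60 litter 4 (adjusted p = 0.0663), with differences of -1.82, -1.75, -1.81 and -1.80. Ank2, an axonal ankyrin, read 7842, 5765 and 7292 at P14, 3337, 3327 and 4347 at P28 and 2471, 2982, 4608 and 2469 at P60, a difference of -1.17 ± 0.24 (adjusted p = 0.0613) that did not pass. Nfasc, the node and initial segment adhesion protein, gave -1.02 ± 0.29 (adjusted p = 0.136), Cntn2, the adhesion protein beside nodes, 0.68 ± 0.21 (adjusted p = 0.17), and Ank3, the anchor of sodium channels at the initial segment, -0.33 ± 0.20 (adjusted p = 0.435).

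The tissue label was checked against cell type markers. Every one of the 7 neuronal and 5 interneuron markers was bright enough to be tested and none was below the Bacillus level at all ages. The other lists, by summed signal, were microglia (1820 to 3125 at P14, 2787 to 3031 at P28 and 2338 to 3304 at P60), endothelium and pericytes (804 to 1977, 1126 to 1423 and 1288 to 1512), and choroid plexus (456 to 775, 966 to 1642 and 1014 to 1409). Most of the choroid plexus sum came from Folr1 and Clic6, with means of 235, 669 and 374 and of 352, 547 and 611. Ttr, with means of 40.7, 64.4 and 187, was too dim to be tested, and Kl was below the Bacillus level at all ages. Hippocampal markers summed to 871 to 1342, 1366 to 1588 and 1248 to 2629, with 2 of 5 below the Bacillus level at all ages, and muscle markers to 908 to 1461, 1412 to 1606 and 1362 to 6111. The highest muscle sum came from P60 litter 2, where Ckm alone read 5208, beside 371 to 921 in the other P60 litters.

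Some channel genes known from cortical maturation could not be compared. Kcnc2 was not analysed here, and Kcna4 and Cacna1h had 1 probe set each that was too dim to be tested. The means of Kcna4 were 56.4, 55.5 and 117 and those of Cacna1h 67.9, 32.4 and 57.8. Of the 61 channel probe sets that were not tested, 54 had a mean below the Bacillus level of their chip in at least 1 age and 38 in all 3, and their means over the 10 litters ran from 5.22 to 236. Among them were 9 of the 14 inward rectifier genes, all 5 Kcne genes, the peripheral sodium channels Scn9a and Scn10a, and Cacna1s of skeletal muscle.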

How the data were processed

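RNA from V1 of 10 litters was measured on 30 arrays of 3 chip types. Each deposited table holds linear signal intensities that the authors computed with MAS5, per the submitters' processing notes, and the sources used here do not give its version. In the deposited tables the 2% trimmed mean of each array is 500, so no further scaling was applied. How many arrays there are limits the precision. The second litter number of each sample title was taken as the litter.

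Symbols came from the platform annotation, brought up to date through gene IDs, and no member's symbol changed. The constant added before log2 was the 20th percentile of the chip type (38.6, 57.8 and 44.0 for chips A, B and C), and the filter asked for a signal above the chip's median (207, 252 and 183) on at least 3 arrays. Each chip was fitted alone with limma 3.58.1 in R 4.3.3 (lmFit, eBayes with a variance trend), with age as the only term and all 10 litters, and p-values were adjusted over the 3 chips together. The fit was tested on simulated data. Background is the 95th percentile of 15 Bacillus control probe sets per chip: 98.4 on A, 153 on B and 252 on C.

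Named with values were the members called in any comparison or in the F-test, the 4 with the lowest unadjusted p per direction and comparison, the textbook channels of cortical maturation, and the member of highest mean signal per family, 43 genes in all. The other tested members were added after their values were seen. The members, the channel families, the partner genes and the marker lists were chosen with earlier results of these data known. Alternatives were other scaling, constants, filters, variance models, array weights, litter number as a block and left-out litters. Same-numbered litters did not deviate together (correlations of -0.076 to 0.158), so litter numbers do not pair the samples. Some channel genes are not reported here.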

Additional observations from a re-analysis of the deposited data

Results flagged for a closer look

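In 69 named and tested probe sets, the 4 litters at P60 were searched for a single litter far from the other 3. The measure was its gap to the nearest litter over the whole range, both taken in log2 of signal plus constant. This ratio was compared with the critical value of Dixon's test. The ratios below are on that log2 scale, while the signals beside them are linear and would give other ratios. Chance alone gives such a gap in about 1 in 20 of the probe sets searched, so a few would arise by chance among the 69. For Scn3a (104940_at), the sodium channel of the young brain, P60 litter 1 read 92.7 where the other P60 litters read 283 to 335, a ratio of 0.852. For Kcng1 (105877_at), the silent Kv subunit, P60 litter 4 read 218 where the others read 70.8 to 85.7, a ratio of 0.856, and those 3 values lie below the Bacillus level of chip B.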

How the results depend on the processing

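The count of channel probe sets called between P14 and P60, 2 with all litters, was 1 without the filter on low signals, 1 without a variance trend, 24 with array weights, 8 in the reduced set, and 0 to 3 with each litter left out in turn. It was 0 without P14 litter 2 and 3 without P14 litter 1. Between P14 and P28 it was 0, and 10 with array weights and 4 in the reduced set. The F-test count, 1, was 0 without a variance trend, 20 with array weights, 4 in the reduced set, and 0 to 1 with a litter left out. With the replicate block, a fit with litter number beside age, all of these counts were 0. That fit has 4 residual degrees of freedom in place of 7 and treats same-numbered litters as paired, which the sample titles do not state. Between P28 and P60 the count was 0 in every setting run. Quantile normalization, a smaller or larger constant, robust eBayes and the stricter filter left the counts for all comparisons unchanged. Over the named probe sets, comparisons and settings, 4031 values kept their direction and side of the threshold, 13 lost a call, 40 gained one, 38 differences that were not called moved beyond the spread between litters, and 0 called values changed sign. The cause of these changes was not tested. Signals near the Bacillus level limit what can be said of dim members.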
